A study of Homo sapiens with 2 samples.

Results

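The genes described here are 42 members of the unfolded protein response and the integrated stress response, together with the heat shock chaperones usually read beside them. They were chosen by name from the known pathways and grouped by role: 14 chaperones and folding enzymes of the endoplasmic reticulum (ER), 3 genes of ER-associated degradation, 4 genes of the sensor level, 5 regulators of the integrated stress response, 8 genes commonly listed as ATF4 targets, 6 cytosolic heat shock genes and 2 mitochondrial chaperonins. All 42 were found among the 31845 genes of the count table, and 40 of them reached 50 counts in at least 1 library. The table holds 2 RNA sequencing libraries. The first is parental Capan-1, a long-established line from a pancreatic adenocarcinoma whose BRCA2 gene is mutant. The second is a Capan-1 derivative resistant to olaparib, an inhibitor of the DNA repair enzyme PARP, which was obtained by raising the drug step by step from 15 nM up to 128 uM. Both came from cells bought from ATCC and grown in RPMI1640 with fetal bovine serum, and the labels do not say whether olaparib was in the medium when RNA was taken or whether the derivative is 1 clone. There was 1 library per line and no replicate, so every value below compares these libraries and no test was made.

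The unfolded protein response senses misfolded protein in the ER. Its sensors are IRE1 (gene ERN1), which splices XBP1 mRNA, ATF6, which is cut to release a transcription factor, and PERK (gene EIF2AK3), a kinase. ATF6 and XBP1 are known to induce ER chaperones and degradation genes, whereas PERK and the other kinases of the translation factor eIF2 act through ATF4, whose targets make and import amino acids and include the stress factor CHOP (gene DDIT3). Cytosolic heat shock genes answer to a separate factor, HSF1. A pancreatic ductal cell is a secretory epithelial cell, and such cells hold high levels of ER chaperones.

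The libraries were of nearly equal size, with 34507480 counts listed for the resistant and 34572931 for the parental library. Counts were scaled by TMM, edgeR's trimmed mean of M-values, and a ratio is given as the log2 of resistant over parental with a prior count of 1. Over the 15102 genes that reached 50 counts in either library, the median log2 ratio was 0.06 and the quartiles were -0.50 and 0.44. The heading of the resistant columns is not spelled out in the labels and was taken as the remaining library, so every direction rests on that assignment. Under cell type, the labels say breast cancer. All 9 ductal epithelial markers examined reached 50 counts, among them EPCAM with 76990 resistant and 43076 parental counts and KRT19 with 51896 and 40864. The log2 ratio was above 0 for 6 of them and below 0 for CFTR (2563 and 8946 counts, -1.79), MUC1 (1399 and 3572, -1.34) and SOX9 (1717 and 2882, -0.74). The mammary markers ESR1 and PGR had at most 18 counts in either library, while GATA3 had 486 and 1884 and TFF1 had 4069 and 6978. Leukocyte markers summed to 608 and 375 counts, mostly CD68, with PTPRC at 19 and 7. Fibroblast markers summed to 580 and 133 counts, with LUM at 523 and 35, COL1A1 at 38 and 97 and COL3A1 at 8 and 0. The 2 listed endothelial markers summed to 3 and 3. The part of these markers in the results below was not tested.

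What a count covers limits every result below. The deposited FPKM values, which are counts per kilobase of length and per 1000000 fragments of the library, give back the length used for each gene once the library denominator is known. From 505 well-counted genes with 1 annotated transcript the denominators, in units of 1000000 fragments, were 85.1 in the resistant and 88.7 in the parental library, and the listed counts made up 40.5% and 39.0% of them. Among 11174 genes with at least 3 annotated transcripts and 50 counts, the implied length matched a single GENCODE transcript within 1% for 91.1%. Of the 42 stress genes, 37 matched 1 transcript in this way, 23 of them a protein-coding transcript and 14 a transcript of another type, mostly one with a retained intron. The implied length was at least 50% of the gene's longest transcript for 22 genes and under 50% for 20. Whether a count covers the whole gene or only that transcript was not tested, so a low count here need not be a low level of the gene. Likewise, fewer cells that express a gene and less RNA per cell cannot be told apart in bulk RNA.

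Most of the stress genes were close to equal in the 2 libraries. None of the 40 measured members reached 2-fold on the higher side, where 6.00% of all genes did, and 2 members, ASNS and VLDLR, did so on the lower side, where 8.95% of all genes did. Counted in either direction, 95% of the measured members lay within 2-fold, against 85.0% of all genes. At 1.5-fold, 1 of the 40 was higher (HSPA8), a smaller share than the 16.8% of all genes. On the lower side 11 of the 40 passed 1.5-fold, a larger share than the 21.2% of all genes. In either direction 12 members did so, against 38.1% of all genes. These shares of all genes were not matched for count level. The members' median log2 ratio was -0.08 and their quartiles were -0.60 and 0.27, so their middle lay slightly below that of all genes. The counts are high: 27 members had at least 1000 in both libraries, and the 95% counting interval of the ratio excluded 1 for 36 of 42. These intervals are Clopper-Pearson, cover counting error only and say nothing of the spread between cultures.

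**Figure D1:**
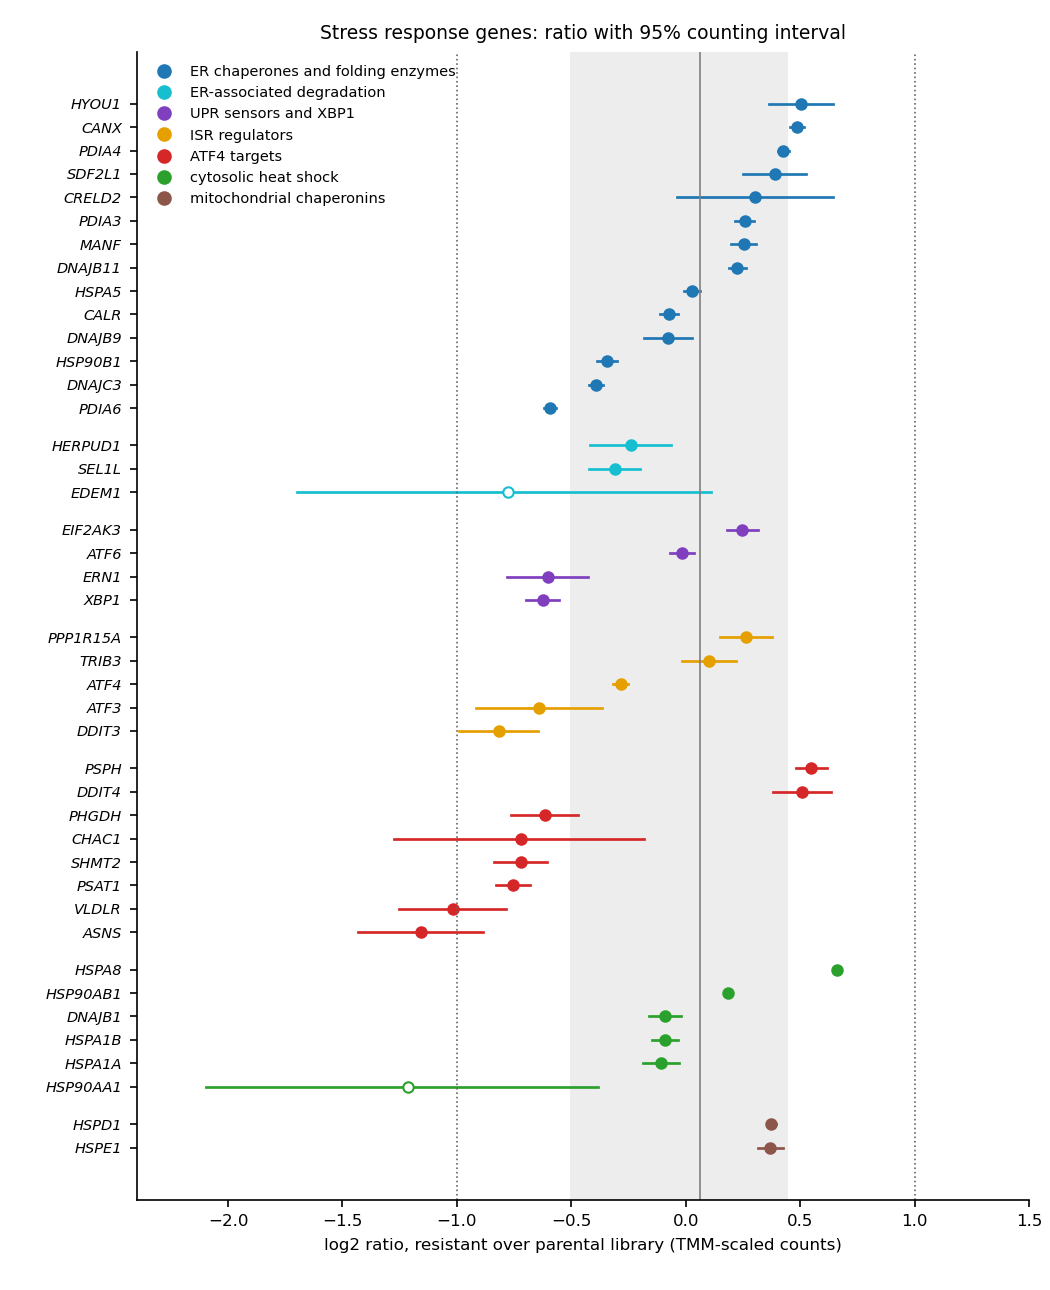
log2 ratio of resistant over parental scaled counts (horizontal axis) for each of the 42 genes, with bars for the 95% counting interval and colours for the role groups; the grey band spans the quartiles of all genes, dotted lines mark 2-fold and open points are genes under 50 counts. ASNS at -1.15 and VLDLR at -1.02 are the measured genes beyond 2-fold.

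**Figure D2:**
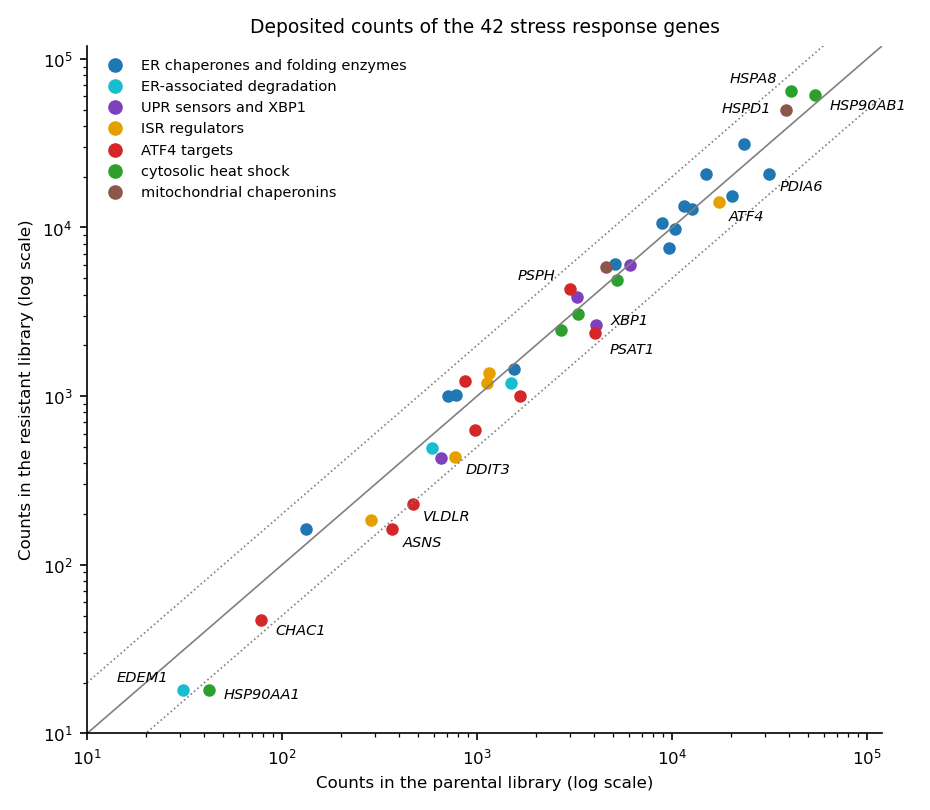
Deposited counts of the 42 genes in the parental (horizontal) and resistant (vertical) library, both axes on a log scale, 1 point per gene, with a solid line at equal counts and dotted lines at 2-fold. The points follow the diagonal from HSP90AA1 (18 resistant and 42 parental counts) to HSPA8 (64345 and 40956).

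The ER chaperones and folding enzymes were level between the libraries in summed counts but not in summed FPKM. Their counts summed to 151870 in the resistant and 151471 in the parental library. Per length, their FPKM values summed to 1681 and 1473, higher in the resistant library. The largest rises were those of CANX (444 and 306) and DNAJB11 (313 and 259). Their implied lengths are 12.9% and 12.3% of the longest transcript. PDIA6 had the largest fall (132 and 192). With FPKM, the median log2 ratio of all genes was also 0.05 higher than with scaled counts. Of the 14 genes, 9 had a log2 ratio above 0 and 5 below, none was beyond 2-fold, and 1 was at least 1.5-fold lower. The median log2 ratio was 0.24, but among the 7 genes with an implied length of at least 50% of the longest transcript it was -0.07. HSPA5, which encodes BiP, the main ER chaperone and a standard marker of the response, had 12833 resistant and 12666 parental counts. That is a log2 ratio of 0.03, the 95% interval of its fold running from 0.995 to 1.05. When a trend of the ratio with implied length was removed, the log2 ratio of HSPA5 was 0.29. Its implied length is that of its full protein-coding transcript.

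HSPA5 is also a gene whose promoter shows the ER stress response element (ERSE), the site known to bind ATF6 and XBP1 with NF-Y. The letters searched were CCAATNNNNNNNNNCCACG on both strands, in windows of 250 bases before to 50 bases after each annotated RefSeq start (GRCh38.p14), and 39 of the 42 members matched an entry (PDIA3, PSPH and SHMT2 did not). The 250 bases before the HSPA5 start are shown whole, with the ERSE match in capitals 66 to 48 bases before the start.
HSPA5 (chr9:125241344-125241593, minus strand): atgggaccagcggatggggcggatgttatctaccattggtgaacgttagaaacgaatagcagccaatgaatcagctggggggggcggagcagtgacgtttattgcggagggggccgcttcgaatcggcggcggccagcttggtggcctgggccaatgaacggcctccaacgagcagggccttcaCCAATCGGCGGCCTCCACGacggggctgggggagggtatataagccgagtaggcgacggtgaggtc
ERSE matches were found in 6 of the 13 ER chaperone genes with a promoter (46.2%) and in XBP1 itself, against 25 of 27305 genes (0.0916%). The sequences below show how the outer CCAAT and CCACG stay while the spacer differs; where the match lies on the other strand it reads in reverse complement.
HSP90B1 (chr12:103930204-103930246, plus strand): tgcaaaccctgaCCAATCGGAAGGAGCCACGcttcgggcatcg
HSP90B1 (chr12:103930309-103930351, plus strand): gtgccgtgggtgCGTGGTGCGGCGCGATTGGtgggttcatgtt
CALR (chr19:12938372-12938414, plus strand): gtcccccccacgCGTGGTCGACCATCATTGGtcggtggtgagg
PDIA6 (chr2:10812841-10812883, minus strand): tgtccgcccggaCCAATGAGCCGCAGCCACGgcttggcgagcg
CRELD2 (chr22:49918542-49918584, plus strand): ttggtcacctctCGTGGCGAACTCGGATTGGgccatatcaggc
XBP1 (chr22:28800591-28800633, minus strand): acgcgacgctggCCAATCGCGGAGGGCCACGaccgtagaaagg
CANX held a match as well. The related ERSE-II, letters ATTGGNCCACG, was found in HYOU1, SDF2L1 and HERPUD1, 3 of 39 members (7.69%), against 19 of all genes with a promoter (0.0696%).
HYOU1 (chr11:119057368-119057402, minus strand): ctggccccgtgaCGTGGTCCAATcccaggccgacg
SDF2L1 (chr22:21642102-21642136, plus strand): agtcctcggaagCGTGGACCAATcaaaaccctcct
HERPUD1 (chr16:56932013-56932047, plus strand): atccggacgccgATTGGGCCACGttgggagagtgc
A match is a description of letters, not a bound site. The 8 ER chaperone genes with either element had 5 log2 ratios above 0 and 3 below, with a median of 0.16 and a range from -0.59 (PDIA6) to 0.50 (HYOU1). The 5 with neither had 3 above and 2 below, with a median of 0.23 and a range from -0.39 to 0.43. The ranges of the 8 and the 5 genes overlapped. Of the 8, the 2 with ERSE-II were above 0 (HYOU1 0.50, SDF2L1 0.39) and those with ERSE lay on both sides of 0. HERPUD1, a degradation gene with ERSE-II, was at -0.24. Among measured genes that are no members, the median was -0.31 for 8 with ERSE and 0.33 for 9 with ERSE-II. Genes without the respective element, members included, had a median of 0.10. With so few genes and a search for exact letters only, these comparisons cannot show whether either element matters for the ratio.

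Within the group, individual chaperones leaned both ways. HYOU1, an ER chaperone of the HSP110 family, had 998 resistant and 709 parental counts, 1.42-fold higher (95% interval 1.29 to 1.56). CANX, the membrane-bound lectin chaperone calnexin, had 20747 and 14922 counts, 1.40-fold higher (1.37 to 1.43). PDIA4, a protein disulfide isomerase, had 31245 and 23406 counts, 1.34-fold higher (1.32 to 1.37). The implied length was the full transcript for PDIA4 but 12.9% of the longest transcript for CANX and 17.9% for HYOU1. SDF2L1, part of an ER chaperone complex, had 1009 and 776 counts, a log2 ratio of 0.39. CRELD2, a secreted ER stress marker, had 163 and 133 counts (0.30), and its interval of 0.975 to 1.56 included 1. The log2 ratios of PDIA3 (10562 and 8890 counts), MANF (6054 and 5114) and DNAJB11 (13359 and 11505) were 0.26, 0.25 and 0.23; they encode a disulfide isomerase, a secreted ER-resident protein and a J-domain co-chaperone of BiP.

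On the lower side, PDIA6, another disulfide isomerase, had 20724 resistant and 31474 parental counts, a log2 ratio of -0.59 and 1.51-fold lower (95% interval 1.48 to 1.54). It was the one ER chaperone past 1.5-fold. DNAJC3, a BiP co-chaperone that also inhibits PERK, had 15416 and 20372 counts (-0.39). HSP90B1, the ER form of HSP90, had 7528 and 9606 counts (-0.34). DNAJB9, a J-domain protein that represses IRE1, had 1447 and 1538 counts (-0.08), and CALR, the soluble lectin chaperone calreticulin, had 9785 and 10360 (-0.07). Members with a shared function thus lay on both sides of 0, such as the isomerases PDIA4 and PDIA6 and the lectin chaperones CANX and CALR. Per length, CANX had the highest FPKM of the group in both libraries (444 and 306) and CRELD2 the lowest (3.65 and 2.86), with HSPA5 at 38.6 and 36.5. This order depends on the implied lengths given above.

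The genes of ER-associated degradation, which sends misfolded ER proteins to the proteasome, were slightly lower in the resistant library. HERPUD1, a membrane component of the retrotranslocation complex, had 495 resistant and 589 parental counts, a log2 ratio of -0.24. SEL1L, the partner of the ubiquitin ligase HRD1, had 1198 and 1496 counts (-0.31). EDEM1, which recognises misfolded glycoproteins, had 18 and 31 counts, under the minimum, and its interval for the fold of 0.308 to 1.08 included 1. None of the 3 genes passed 2-fold as measured. All 3 had an implied length well under 50% of the longest transcript, at 7.60% for SEL1L.

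At the sensor level the 4 genes split. ERN1 had 429 resistant and 656 parental counts, 1.52-fold lower (95% interval 1.34 to 1.72). XBP1, whose mRNA IRE1 splices, had 2630 and 4083 counts, 1.54-fold lower (1.47 to 1.62). ATF6 had 6001 and 6104 counts, a log2 ratio of -0.02, and EIF2AK3 had 3846 and 3264, a log2 ratio of 0.25. The IRE1 and XBP1 genes were thus both lower while ATF6 was level and the PERK gene slightly higher. The group median of -0.31 turned to 0.06 when a trend of the ratio with implied length was removed. Under that setting ATF6 was 0.45 and EIF2AK3 0.53 while ERN1 and XBP1 stayed below 0. The implied length of XBP1, 520 bases, is that of a transcript with a retained intron, and the table does not separate spliced from unspliced XBP1, so IRE1 activity was not measured.

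Of the 5 regulators of the integrated stress response, 3 had a log2 ratio below 0 and 2 above, with a median of -0.28. Among all genes, 48.6% had a ratio below that of ATF6 (-0.02), so 3 of 5 is near the share of all genes. ATF4, the transcription factor of the response, had 14154 resistant and 17345 parental counts (-0.28), 1.22-fold lower (95% interval 1.19 to 1.24), on its full transcript length. ATF4 is known to be controlled mainly by translation, which counts of RNA do not measure. The 2 listed ATF4 pseudogenes summed to 376 and 560 counts (-0.56). DDIT3, the gene of CHOP, had 435 and 772 counts (-0.82), 1.76-fold lower (1.57 to 1.99). ATF3, a stress-induced repressor, had 183 and 287 counts (-0.64), 1.56-fold lower (1.29 to 1.89). The ratios of the 2 feedback genes were above 0. TRIB3, a pseudokinase that binds ATF4, had 1198 and 1123 counts (0.10), with an interval of 0.989 to 1.17. PPP1R15A, the GADD34 subunit that restores eIF2 by dephosphorylation, had 1379 and 1158 counts (0.26).

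The ATF4 targets held the lowest ratios among the members with at least 50 counts. Of the 8 genes, 6 had a log2 ratio below 0 and those 6 were all at least 1.5-fold lower, against 21.2% of all genes. ASNS and VLDLR passed 2-fold. The median was -0.72 and the mean -0.49. That median differed with implied length. It was 0.51 for the 3 genes with an implied length of at least 50% of the longest transcript, and -0.72 for the 5 others. The 3 genes were PSAT1 (-0.76), PSPH (0.55) and DDIT4 (0.51). Because the 3 and the 5 are different genes, the gene and the transcript counted cannot be told apart. Over all genes the same split gave medians of -0.05 and 0.18, the opposite order.

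**Figure D3:**
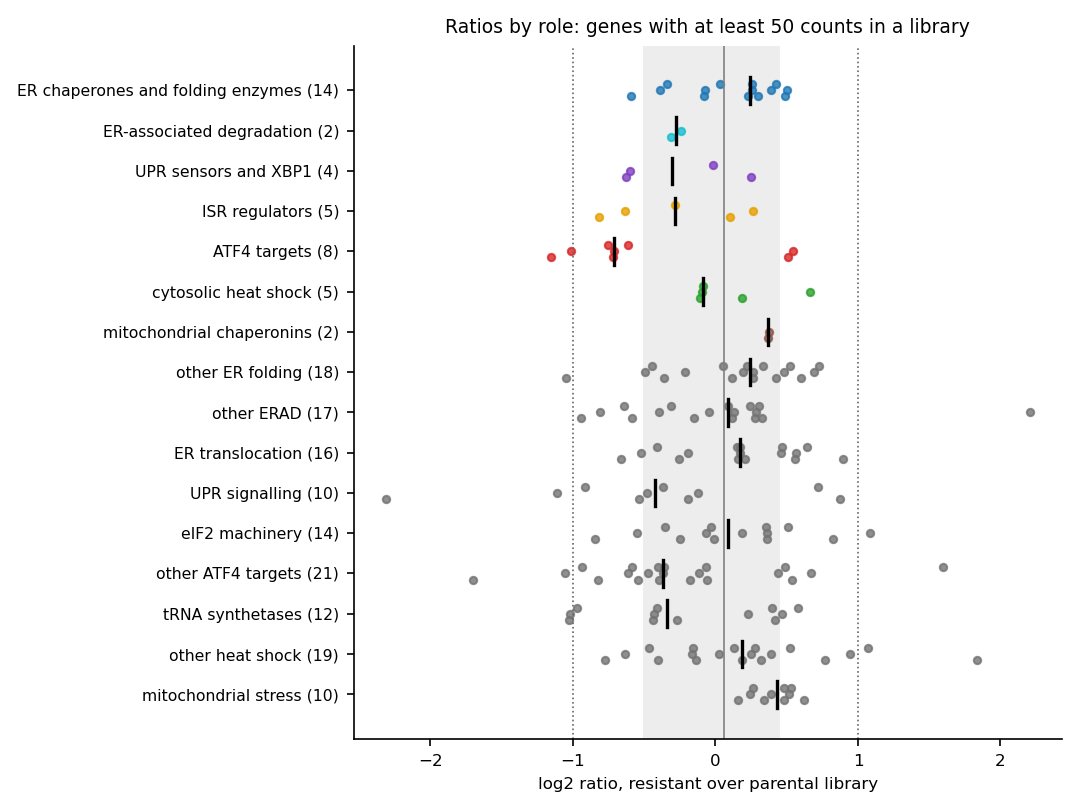
log2 ratio of resistant over parental counts by role, 1 point per gene that reached 50 counts, with a black mark at the median of each group or further pathway list, a grey band between the quartiles of all genes around a line at their median, and dotted lines at 2-fold. The ATF4 targets have the lowest median of the 7 role groups (-0.72) and the mitochondrial chaperonins the highest (0.37).

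Most of the lower genes make amino acids, but so do most of the ATF4 targets chosen for the list. Their share among the lower genes therefore does not set them apart from the list. Whether amino acid synthesis as a whole differed between the libraries was not tested. ASNS, asparagine synthetase, had 164 resistant and 368 parental counts, 2.23-fold lower (95% interval 1.85 to 2.70). The serine pathway was not uniform along its steps. PHGDH, its first enzyme, had 629 and 971 counts and was 1.53-fold lower (1.39 to 1.70). PSAT1, the next, had 2358 and 4009 counts and was 1.69-fold lower (1.6 to 1.78), on its full transcript length. PSPH, the last enzyme, had 4343 and 2991 counts and was 1.46-fold higher (1.39 to 1.53). SHMT2, which converts serine to glycine in mitochondria, had 998 and 1657 counts and was 1.65-fold lower (1.52 to 1.79). The first 2 enzymes and SHMT2 were thus lower and PSPH alone of the 4 was higher. The count of PSPH has an implied length equal to that of a transcript subject to nonsense-mediated decay, and PSPH has a known pseudogene copy, so its value is uncertain. Some of the lower genes are uncertain as well. The implied length was 64.7% of the longest transcript for PSPH, but 23.9% for ASNS, 15.9% for SHMT2 and 19.0% for PHGDH. That of PHGDH matched no single transcript. Among the other targets, CHAC1, a glutathione-degrading enzyme, had 47 and 78 counts, 1.65-fold lower (1.13 to 2.42). VLDLR, a lipoprotein receptor, had 229 and 467 counts, 2.03-fold lower (1.73 to 2.38). DDIT4, the mTORC1 inhibitor REDD1, had 1229 and 871 counts and was 1.42-fold higher (1.3 to 1.55).

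The ASNS promoter is shown because ASNS had the lowest ratio of the measured members and carries an ATF4 element in this window. The letters searched for this C/EBP-ATF composite were TGATGNAA on both strands, and the match, in capitals, lies 68 to 61 bases before the start.
ASNS (chr7:97872409-97872658, minus strand): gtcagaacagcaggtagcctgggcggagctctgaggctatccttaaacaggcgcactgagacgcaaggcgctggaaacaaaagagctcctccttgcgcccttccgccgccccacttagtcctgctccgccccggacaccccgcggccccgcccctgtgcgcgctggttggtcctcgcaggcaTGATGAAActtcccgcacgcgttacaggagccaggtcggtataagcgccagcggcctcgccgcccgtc
The element was found in 4 of 39 members (10.3%), against 1217 of 27305 genes (4.46%). The other 3 are given with 12 bases on each side, and the copies in CHAC1 and HERPUD1 are in reverse complement.
ATF3 (chr1:212565204-212565235, plus strand): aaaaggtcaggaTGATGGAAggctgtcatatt
CHAC1 (chr15:40953250-40953281, plus strand): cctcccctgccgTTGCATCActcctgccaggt
HERPUD1 (chr16:56931954-56931985, plus strand): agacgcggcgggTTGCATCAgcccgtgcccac
All 4 of these members had a log2 ratio below 0, from -1.15 (ASNS) to -0.24 (HERPUD1), with a median of -0.67. The 290 measured genes with the element that are no members had a median of -0.08, and all 9948 measured genes without it, members included, 0.11. PSAT1, PHGDH and VLDLR were lower with no match in this window, which says only that these letters are not in it.

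The cytosolic heat shock genes were level apart from HSPA8. HSPA8, the constitutive chaperone HSC70, had 64345 resistant and 40956 parental counts, 1.58-fold higher (95% interval 1.56 to 1.6), and per length its FPKM of 1626 and 992 was the highest of the 42 genes. Its implied length of 465 bases is that of a short processed transcript, 18.9% of the longest. The genes of inducible HSP70, HSPA1A with 2469 and 2680 counts and HSPA1B with 4885 and 5239, had log2 ratios of -0.11 and -0.09. Their coding sequences of 1926 bases differ at 4 positions (99.8% identity), so reads can be assigned to either and the pooled value is safer: 7354 and 7919 counts, a log2 ratio of -0.10. DNAJB1, the HSP40 co-chaperone, had 3085 and 3305 counts (-0.09). HSP90AB1, the constitutive HSP90, had 60919 and 53937 counts (0.19). The group median of -0.09 turned to 0.06 with the length trend removed, and the mean was 0.11.

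HSP90AA1, the stress-inducible HSP90, was listed with 18 resistant and 42 parental counts, below the minimum. Its implied length of 595 bases is 17% of its longest transcript, and 5 HSP90AA1 pseudogenes summed to 563 and 486 counts, more than the gene itself. The ratio of 2.32-fold lower (95% interval 1.31 to 4.28) therefore concerns a listing of few reads and is not given as a level of HSP90AA1. The heat shock element, letters GAANNTTCNNGAA on both strands, was found in 4 of 39 members (HSPA8, HSP90AB1, HSP90AA1 and HSPD1), 10.3%, against 166 of 27305 genes (0.608%). The copies in HSPA8 and HSP90AA1, the genes with the highest and lowest listed ratio of this group, are shown with the element in capitals.
HSPA8 (chr11:123062342-123062378, minus strand): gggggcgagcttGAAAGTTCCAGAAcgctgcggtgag
HSPA8 (chr11:123062167-123062203, minus strand): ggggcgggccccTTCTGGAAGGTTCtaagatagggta
HSP90AA1 (chr14:102087108-102087144, minus strand): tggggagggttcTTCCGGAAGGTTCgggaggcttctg
HSPA1A, HSPA1B and DNAJB1 held no match to these letters in the window. The 49 measured genes with the element that are no members had a median log2 ratio of 0.25, against 0.10 for all 10190 measured genes without it, members included.

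The mitochondrial chaperonins, which fold imported proteins, were both higher in the resistant library. HSPD1, the chaperonin HSP60, had 49401 resistant and 38361 parental counts, 1.3-fold higher (95% interval 1.28 to 1.31). HSPE1, its partner HSP10, had 5867 and 4571 counts, 1.29-fold higher (1.24 to 1.34). The 2 genes lie head to head and overlap, and the read-through gene HSPE1-MOB4 had 26439 and 22027 counts (0.27), so they are not independent measurements. The 10 listed HSPD1 pseudogenes summed to 2767 and 2211 counts (0.33).

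The copy number of a chromosome segment can differ between related cancer cell lines. Each ratio was therefore set beside the median log2 ratio of its nearest measured coding genes, up to 10 on each side: 20 genes for all measured members except VLDLR (17) and TRIB3 (13). Of the 40 measured members, 12 were within 0.2 of their neighbours. The share of all genes this close to their neighbours was not computed, so this count cannot be called high or low. The ratio of DDIT3 (-0.82) was close to that of its neighbours (-0.85), and SHMT2 (-0.72) to its own (-0.76). These genes lie near each other on chromosome 12 and share 14 of the 20 neighbours. PDIA6 (-0.59), DNAJC3 (-0.39) and HSP90B1 (-0.34) likewise had neighbours at -0.71, -0.44 and -0.32. Other members stood away from their neighbours. ASNS was 0.85 lower than its neighbours' median of -0.30, VLDLR 0.84 lower, CHAC1 0.92 lower, PHGDH 0.98 lower and ERN1 0.93 lower. In the other direction HSPA8 was 0.89 above its neighbours, DNAJB11 0.79, MANF 0.75, CANX 0.74 and PDIA4 0.70. HSPA5 was 0.44 above its neighbours' median of -0.41. Among the ER chaperones, the difference from the neighbours was below 0 only for CALR (-0.35), PDIA3 (-0.10) and HSP90B1 (-0.02). Copy number itself was not measured here, and its part in these ratios was not tested.

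**Figure D4:**
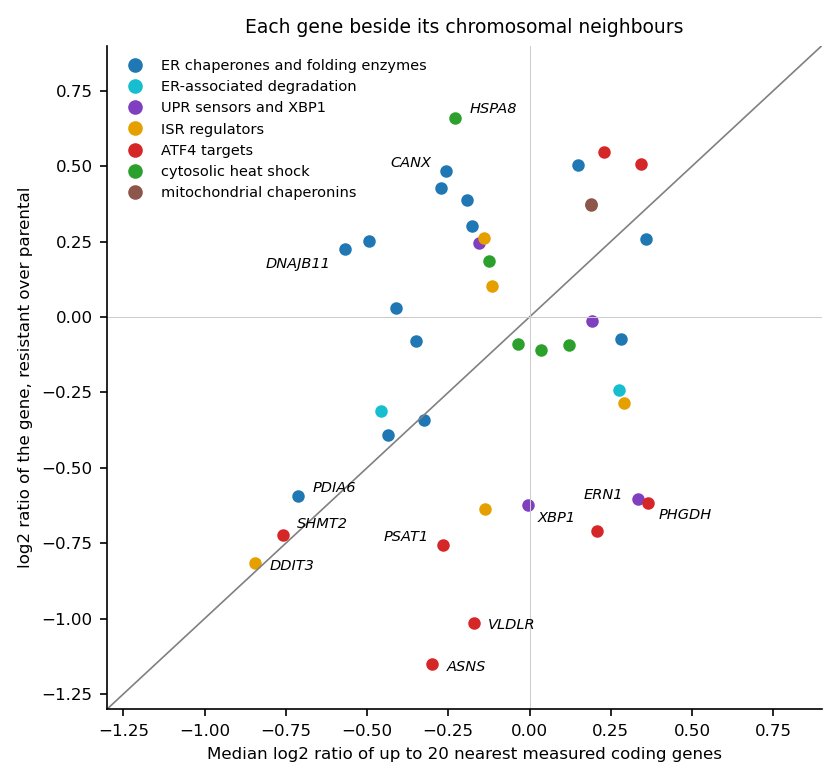
log2 ratio of each measured stress gene (vertical) against the median log2 ratio of its nearest measured coding genes, up to 20 (horizontal), coloured by role, with the line of equality. DDIT3 (-0.82) and SHMT2 (-0.72) lie on that line, whereas ASNS, VLDLR and PHGDH lie below it.

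Overlapping genes add a further limit, because whether counting used strand is not given in the sources used here, although the labels name a strand-specific kit. In all, 16 members overlap another gene with at least 50 counts. DDIT3 overlaps MARS1 on the opposite strand (865 resistant and 1767 parental counts, -1.02) and MBD6 (48 and 196, -2.0). PDIA3 overlaps ELL3 (826 and 212 counts, 1.97) and PDIA6 overlaps ATP6V1C2 (201 and 378, -0.90). For PDIA3 and PDIA6 the partner had far fewer counts than the member, while MARS1 had more than DDIT3. The opposite-strand partner also had more counts for CRELD2 (ALG12, 451 and 517), DNAJB9 (PNPLA8, 1675 and 2011) and HSP90AA1 (WDR20, 1402 and 1231).

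**Figure D5:**
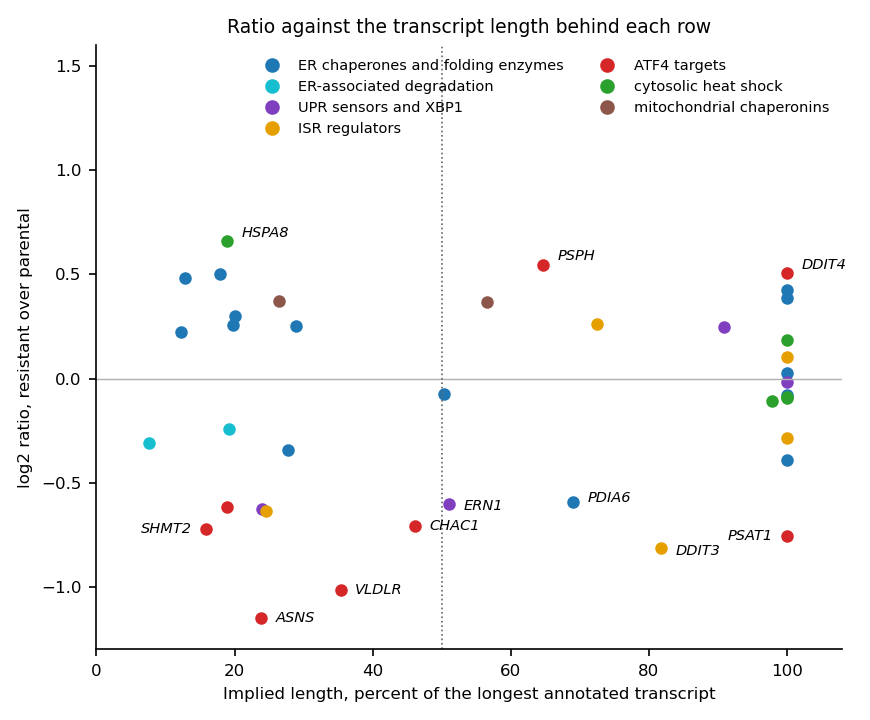
log2 ratio of each measured stress gene (vertical) against the implied length as a percent of the gene's longest annotated transcript (horizontal), coloured by role, with a dotted line at 50%. Both genes beyond 2-fold, ASNS (23.9%) and VLDLR (35.4%), are left of the line, as is HSPA8 (18.9%).

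The wider pathways, 137 measured genes in 9 further lists, were examined for the same pattern. Past 2-fold, 5 of them were higher, against 6.00% of all genes, and 7 lower, against 8.95%, and their median log2 ratio was 0.13. Both counts are a smaller share of the lists than of all genes. Other ATF4 targets leaned the way of the 8 members: 16 of 21 had a log2 ratio below 0. Among all genes, 48.6% had a ratio below that of ATF6 (-0.02). The median of the 21 was -0.37 (-0.40 for the 11 genes with an implied length of at least 50%). Past 2-fold, 1 was higher and 2 were lower, near the shares of all genes. The 5 genes above 0 were SLC7A1, SLC7A11 (0.67), PYCR1 (0.53), ALDH18A1 (0.49) and MTHFD2 (0.44). JDP2, a transcriptional repressor, had 106 resistant and 349 parental counts, 3.27-fold lower beside neighbours at a log2 ratio of -0.28, and KLHL24, an adaptor of a ubiquitin ligase, had 2921 and 6109, 2.08-fold lower beside neighbours at -0.35. The exception past 2-fold was SLC7A1, the transporter of cationic amino acids, with 9282 and 3091 counts, a log2 ratio of 1.6 beside neighbours at 2.33. Aminoacyl-tRNA synthetases, many of them ATF4 targets, had a median of -0.34 and 7 of 12 log2 ratios below 0, near the share of all genes. The 5 above 0 included TARS1 (26046 and 17558 counts, 0.58), LARS1 (0.47) and EPRS1 (0.42). The counts of the 12 summed to 60331 and 54492, higher in the resistant library. WARS1 (846 and 1735 counts) and MARS1 were at least 2-fold lower, where 8.95% of all genes were. Their neighbours were at -0.34 and -0.80, and MARS1 overlaps DDIT3, so the ratios of MARS1 and DDIT3 are not independent.

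On the ER side, the median log2 ratio was 0.24 over 18 other folding genes, 0.18 over 16 translocation genes and 0.09 over 17 other degradation genes, close to that of the ER chaperones or of all genes. None of the translocation genes passed 2-fold. The largest ratios among them were those of SEC61G, a subunit of the translocation channel, with 25499 and 13808 counts (0.89 beside neighbours at 0.54), and SEC11A, a subunit of the signal peptidase, with 9984 and 15914 (-0.66 beside neighbours at -0.65). In the folding and degradation lists, the genes past 2-fold were ERO1B, an oxidase that recharges disulfide isomerases, with 256 and 535 counts (-1.05 beside neighbours at 0.16), and DERL3, a retrotranslocation protein, with 54 and 11 counts (2.21 beside neighbours at 0.23), whose interval of 2.55 to 10.5 is wide. Further signalling genes of the response had 8 of 10 log2 ratios below 0 and a median of -0.42. CREB3L1, an ER-bound factor related to ATF6, had 114 and 574 counts and was 5.0-fold lower (4.08 to 6.17), beside neighbours at a log2 ratio of -0.54. ERN2, the epithelial form of IRE1, had 807 and 1757 counts and was 2.16-fold lower (1.99 to 2.35), with neighbours at -0.23, so both IRE1 genes had fewer counts in the resistant library. The 14 genes of the eIF2 machinery had 7 log2 ratios above and 7 below 0, and EIF2B1, a subunit of its exchange factor, had 1683 and 798 counts (1.09 beside neighbours at 0.76).

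Among 19 other heat shock genes 2 were at least 2-fold higher, where 6.00% of all genes were, and the median was 0.19. HSPH1, the cytosolic HSP110, had a log2 ratio of 1.83 but neighbours at 2.25, while HSPA4L, its relative, had 8029 and 3855 counts (1.07) beside neighbours at 0.36. The mitochondrial stress genes leaned 1 way: all 10 had a log2 ratio above that of the median gene, from 0.16 to 0.62, with none past 2-fold and a median of 0.43. TRAP1, the mitochondrial HSP90, had 1204 and 787 counts (0.62), and HTRA2, a protease of the intermembrane space, had 1869 and 1304 (0.53). HSPD1 and HSPE1, at 0.37 each, were within that range.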

How the data were processed

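RNA was measured in 2 libraries, 1 per cell line, and both groups come from the labels. The deposited table gives, per the file headers, a count and an FPKM value per gene and library. The deposited counts are whole numbers with no normalization, totalling 34507480 (resistant) and 34572931 (parental), and FPKM was calculated by the authors. The submitters' processing notes name RSEM 1.2.3 and hg19 without giving a role. An aligner, an annotation and a strand setting are not given in the sources used. A symbol was found for 29536 of 31845 Ensembl identifiers.

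The 42 genes and all lists were chosen with earlier results of these data known. Counts were scaled by TMM (edgeR 4.0.16, R 4.3.3). The log2 ratio used a prior count of 1, a minimum of 50 counts in the higher library and a 2-fold size. Folds are ratios of scaled counts with 95% Clopper-Pearson intervals for counting error. With 1 library per group there was no test. The steps were tested on simulated data. All 42 genes are reported, and from each other list up to 3 genes past 2-fold, or the 2 largest. Implied lengths, gene order and overlaps used GENCODE 29. Its coordinates gave the order and the overlaps but are not printed, since it is on another build. Promoters came from RefSeq (GRCh38.p14). Alternatives were other scalings, prior counts, minimums, fold sizes, FPKM with 0.1 added, removal of a trend with implied length (lowess, fraction 0.3) and the mean.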

Additional observations from a re-analysis of the deposited data

How the results depend on the processing

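The count of members at least 2-fold lower, 2 as reported, was 1 with upper-quartile scaling, with FPKM and with the length trend removed, in each case because VLDLR moved inside 2-fold. It was 3 at a minimum of 10 counts and with no minimum, where HSP90AA1 entered. It was 11 at a 1.5-fold size (1 higher) and 0 at 4-fold. With upper-quartile scaling the median log2 ratios were 0.31 for ER chaperones, -0.21 for integrated stress response regulators, -0.018 for cytosolic heat shock and 0.44 for mitochondrial chaperonins. With FPKM they were 0.29, -0.23 for the regulators and 0.42 for the chaperonins. With the length trend removed they were 0.060 for the sensors, -0.20 for the regulators and 0.060 for cytosolic heat shock. As a mean, ATF4 targets gave -0.49 and cytosolic heat shock 0.11. Keeping genes with an implied length of at least 50%, an alternative chosen after seeing the data, left 0 members 2-fold lower and gave medians of -0.073 for ER chaperones, -0.015 for sensors, -0.091 for the regulators and 0.51 for ATF4 targets; it drops genes by construction and left no degradation gene. The scalings moved the median of all genes by at most 0.08. The cause of the other shifts was not tested. Leaving out a library was not possible with 1 per group. No paired analysis was possible because the labels carry no replicate numbers and each group has 1 library.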
